A study of Mus musculus with 4 samples.

Results

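Oxidative phosphorylation genes were followed in mouse embryonic stem cells (ESCs) sorted for activity of the Zscan4c promoter. They were chosen by gene symbol alone: every symbol starting with mt-, which marks the mitochondrial genome, and every nuclear symbol of the families Nduf (complex I), Sdh (complex II), Uqcr (complex III), Cox4 to Cox8 (complex IV) and Atp5 (complex V), without pseudogene symbols holding -ps. The rule gave 119 of 24190 symbols. Of these, 37 were mitochondrially encoded (13 mRNAs, 2 rRNAs and 22 tRNAs) and 82 were nuclear, with 34 in complex I, 4 in complex II, 8 in complex III, 19 in complex IV and 17 in complex V. Ndufa4 and its relative Ndufa4l2 were placed with complex IV, where the Ndufa4 protein is known to sit.

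The parent line was E14 (ES-E14TG2a), a widely used ESC line from a male mouse, kept in serum-free N2B27-based medium with 0.8 µM of the MEK inhibitor PD0325901 and 3.3 µM of the GSK3β inhibitor CHIR99021. A pair of clonal derivatives carried a stably integrated Zscan4c promoter. In one, called the fusion line here, the promoter drove GFP fused to Zscan4c (GFP-Zscan4c), and in the other, the GFP-only line, it drove GFP alone. Fluorescence-activated sorting divided each line into GFP-positive cells, which the labels call 2C-like after the 2-cell embryo, and GFP-negative cells, which they call pluripotent. Each of the 4 populations is 1 library of poly-A RNA, so no value has a replicate error, and each line is 1 clone.

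The labels were checked against marker genes. All 9 listed markers of the 2C-like state were 2-fold or more higher in GFP-positive cells of both lines, with sums of 2060 and 1108 TPM (a length-scaled share of all transcripts) in GFP-positive cells of the fusion and GFP-only lines against 11.3 and 12.2 TPM in their GFP-negative cells, with the lines in that order here and in the marker sums that follow. These markers include Zscan4b to Zscan4f, and the sort was on the Zscan4c promoter, so the outcome for this family was partly set in advance. In the fusion line the construct also encodes Zscan4c. The markers outside the family were Tcstv1, Tcstv3, Tmem92 and Duxf3. Their log2 ratios of TPM + 1 were 2.60 to 7.10 in the fusion line and 2.94 to 6.04 in the GFP-only line. The pluripotency gene Pou5f1 was abundant in every library (1075 to 1447 TPM). Markers of other cell types were low: 3 fibroblast markers summed to 7.42 and 11.9 TPM in GFP-positive cells against 0.114 and 0 TPM in GFP-negative cells, nearly all of it Thy1, with the collagen genes Col1a1 and Col1a2 at or below 0.114 TPM. Markers of primitive endoderm (2 listed, sums of 3.07 and 2.22 TPM in GFP-positive cells against 0.441 and 0 TPM in GFP-negative cells) and trophectoderm (3 listed, 0 and 8.54 TPM against 0.0452 and 0 TPM) were low as well. These sums moved with GFP status, and their part in the results was not tested. One library stood apart: in GFP-negative cells of the GFP-only line 48.4% of symbols were listed at 0, against 11.6% and 19.5% in GFP-positive and GFP-negative cells of the fusion line and 11.8% in GFP-positive cells of the GFP-only line, and its correlation with them across genes was 0.82 to 0.85, against 0.94 to 0.96 among the others. The main results that rest on this library are also given with the other GFP-negative library in its place. A scaling factor was taken per library: the median ratio of its TPM to each gene's geometric mean, over genes above 0 in every library. It was 1.03 in GFP-positive cells of the GFP-only line and 0.942 in GFP-negative cells of the fusion line. Genes in general were thus listed higher in the first, and ratios of this pair were not rescaled.

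Oxidative phosphorylation passes electrons from NADH and succinate through complexes I to IV to oxygen, and complex V uses the resulting proton gradient to make ATP. The subunits come from separate genomes: the mitochondrial genome encodes 13 core proteins of complexes I, III, IV and V, and nuclear genes encode all of complex II and the other subunits. Both strands of mitochondrial DNA are transcribed into long RNAs from which tRNAs, rRNAs and mRNAs are cut, and most of the mRNAs are then given poly-A tails (in human cells the mRNA of ND6 is known to lack one), so mitochondrial genes share precursors and are not independent of each other. ESCs in culture are known to use glycolysis and to hold mitochondria of immature form.

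The arrangement of the mitochondrial genes decides what their values can mean in this library type. On GRCm38, 12 of the 13 mRNAs lie on the plus strand and mt-Nd6 alone on the minus strand. The 3′ end of mt-Nd6 overlaps that of mt-Nd5 by 14 bases on the opposite strand, and mt-Atp8 and mt-Atp6 overlap by 43 bases on the same strand. The labels name no step that marks strand, so reads from mt-Nd6 and from antisense RNA over it cannot be told apart. The overlaps are shown in capitals, each read 5′ to 3′ on the strand of the gene named: chrM:13526-13565 plus strand for mt-Nd5, chrM:13552-13591 minus strand for mt-Nd6, and chrM:7910-7969 plus strand for the end of mt-Atp8, whose overlap opens with the ATG of mt-Atp6.
mt-Nd5: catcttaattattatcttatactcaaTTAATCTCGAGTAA
mt-Nd6: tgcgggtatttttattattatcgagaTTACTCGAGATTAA
mt-Atp8: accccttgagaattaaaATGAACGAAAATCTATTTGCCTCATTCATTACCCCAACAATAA

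A further feature ties these mRNAs to poly-A selection. In the annotation, 10 of the 13 reading frames end in a whole stop codon, and 3 (mt-Co3, mt-Nd4 and mt-Cytb) end in the single base T, which the poly-A tail is known to complete to TAA. The last 30 bases of these 3 genes are shown with that T in capitals, at chrM:9361-9390, chrM:11515-11544 and chrM:15259-15288, all on the plus strand.
mt-Co3: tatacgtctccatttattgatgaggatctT
mt-Nd4: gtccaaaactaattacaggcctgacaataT
mt-Cytb: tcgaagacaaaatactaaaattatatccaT

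All 13 mitochondrially encoded mRNAs were higher in GFP-positive than in GFP-negative cells of both lines. Their sum was 14749 TPM in GFP-positive against 9961 TPM in GFP-negative cells of the fusion line (1.48 times), and 11569 against 9588 TPM in the GFP-only line (1.21 times). The median log2 ratio of TPM + 1 was 0.62 in the fusion line and 0.29 in the GFP-only line, beside medians over all genes of 0.14 and 0.19, or 0.14 and −0.006 over genes above 0 in both libraries of the line. Over all genes at 5 TPM or more in either library of each line, 45.4% were higher in GFP-positive cells of both lines and 16.4% lower in both. In sorted populations measured in bulk, a different share of cells of one type and a different amount of RNA per cell cannot be told apart.

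**Figure D1:**
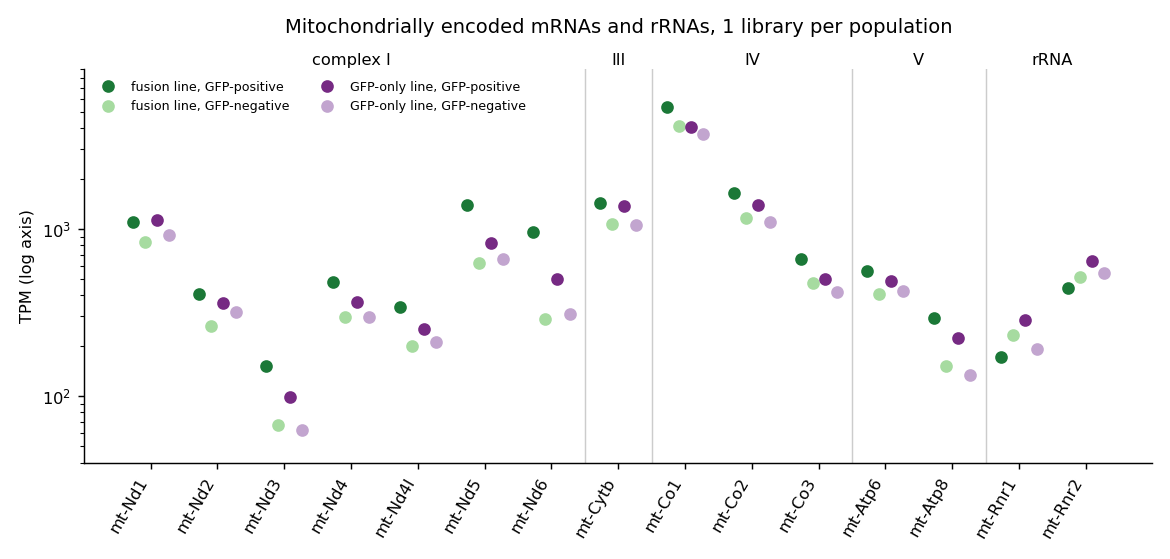
TPM (log axis) of the 13 mitochondrially encoded mRNAs, grouped by complex, and the 2 rRNAs; each point is 1 library. The GFP-positive point of each line is above its GFP-negative point for every mRNA, and in the fusion line it is below for both rRNAs.

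Complex I, which oxidises NADH, has 7 mitochondrially encoded subunits that form the core of its membrane arm, and these held the largest ratios in the fusion line. The sum of the 7 was 1.88 times as high in GFP-positive as in GFP-negative cells of that line and 1.26 times in the GFP-only line. The widest difference was that of mt-Nd6, at 959 TPM in GFP-positive against 287 TPM in GFP-negative cells of the fusion line, and at 499 against 311 TPM in the GFP-only line (log2 ratios 1.74 and 0.68). mt-Nd5, its neighbour on the other strand and one of the proton-pumping subunits, was at 1397 against 624 TPM in the fusion line and at 821 against 664 TPM in the GFP-only line (1.16 and 0.31). mt-Nd3, a small membrane subunit, was at 152 against 67.4 TPM in the fusion line and at 99.1 against 62.9 TPM in the GFP-only line (1.16 and 0.65). In the fusion line these 3 were the mitochondrial mRNAs past 2-fold, and in the GFP-only line none was.

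The other complex I mRNAs differed less. mt-Nd4l was at 340.1 TPM in GFP-positive against 199 TPM in GFP-negative cells of the fusion line, and at 251 against 211 TPM in the GFP-only line (log2 ratios 0.77 and 0.25). mt-Nd4, a proton-pumping subunit read from the same mRNA as mt-Nd4l, was at 483 against 297 TPM in the fusion line and at 364 against 297 TPM in the GFP-only line (0.70 and 0.29). mt-Nd2, also a proton-pumping subunit, was at 406 against 264 TPM in the fusion line and at 358 against 320.4 TPM in the GFP-only line (0.62 and 0.16). mt-Nd1, which lines the quinone channel, was the least changed of the 7 in the fusion line at 1101 against 838 TPM, and was at 1124 against 923 TPM in the GFP-only line (0.39 and 0.28).

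The mRNAs of complexes III and IV had log2 ratios of 0.37 to 0.49 in the fusion line. mt-Cytb, the cytochrome b of complex III, was at 1435 TPM in GFP-positive against 1064 TPM in GFP-negative cells of the fusion line, and at 1363 against 1058 TPM in the GFP-only line (log2 ratios 0.43 and 0.36). mt-Co1, the catalytic subunit of cytochrome c oxidase and the most abundant of the 13 in every library, was at 5319 against 4124 TPM in the fusion line and at 4082 against 3672 TPM in the GFP-only line (0.37 and 0.15). mt-Co1 had the smallest log2 ratio of the 13 in each line, and in the GFP-only line its 0.15 lay below the median of all genes (0.19) and above that of genes above 0 in both libraries (−0.006). Its share of the mitochondrial mRNA sum was 36.1% in GFP-positive against 41.4% in GFP-negative cells of the fusion line, and 35.3% against 38.3% in the GFP-only line. mt-Co2, which takes electrons from cytochrome c, was at 1638 against 1164 TPM in the fusion line and at 1394 against 1092 TPM in the GFP-only line (0.49 and 0.35). mt-Co3, the third core subunit, was at 664 against 472 TPM in the fusion line and at 505 against 418 TPM in the GFP-only line (0.49 and 0.27).

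The complex V pair, which share the 43 bases shown above, had unlike ratios as listed. mt-Atp8, a small membrane subunit, was at 293 TPM in GFP-positive against 151 TPM in GFP-negative cells of the fusion line, and at 223 against 134 TPM in the GFP-only line (log2 ratios 0.95 and 0.73). mt-Atp6, which forms the proton path, was at 561 against 409 TPM in the fusion line and at 487 against 426 TPM in the GFP-only line (0.46 and 0.19). The ratio of mt-Atp8 to mt-Atp6 was therefore 0.522 in GFP-positive against 0.369 in GFP-negative cells of the fusion line, and 0.459 against 0.315 in the GFP-only line. A similar shift held on the opposite strands, where mt-Nd6 over mt-Nd5 was 0.687 against 0.460 in the fusion line and 0.608 against 0.469 in the GFP-only line. Of the complex V pair, mt-Atp6 alone has a listed nuclear copy, described below. With that copy added, the log2 ratios of mt-Atp6 were 0.58 in the fusion line and 0.26 in the GFP-only line. The part of how reads were divided among these genes was not tested. Across the 13 mRNAs, which run from 204 to 1824 bases, Spearman's rho between length and log2 ratio was −0.43 in the fusion line and −0.40 in the GFP-only line. Between mean TPM and log2 ratio it was −0.65 in the fusion line and −0.22 in the GFP-only line. These are descriptions over 13 genes of 1 genome that share libraries and precursors.

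The ratios of the lines were compared gene by gene, without a test, as each is a pair of single libraries. All 13 mRNAs had the larger log2 ratio in the fusion line, by a median of 0.27 and by up to 1.06 for mt-Nd6. Set directly against each other within GFP-positive cells, the fusion line was higher than the GFP-only line for 12 of the 13 mRNAs, with a median log2 ratio of 0.39. Of all genes 55.9% were higher in that comparison, with a median of 0.05. The exception among the 13 was mt-Nd1. Within GFP-negative cells the fusion line was higher for 7 and lower for 6, with a median of 0.00. Of all genes 51.7% were higher there, with a median of 0.04, or −0.12 over genes above 0 in both libraries. None of the 13 was 2-fold apart between the lines in either comparison, where 5.71% of all genes were 2-fold or more higher and 4.05% lower in GFP-positive cells of the fusion line, and 30.1% higher and 8.49% lower in its GFP-negative cells. With the GFP-negative library of the fusion line in place of the one with many zeros, GFP-positive cells of the GFP-only line were higher for 12 of 13 mRNAs with a median of 0.36, and mt-Co1 was level at −0.01. These ratios were not rescaled for the difference between the libraries given above, and no value over all genes is given beside them. Part of the 0.36 may thus be shared by genes in general.

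The counts past a fold were set beside those of all genes, where the lines differed. In the fusion line 3 of 13 mRNAs were 2-fold or more higher, where 8.23% of all genes at 5 TPM or more were higher and 3.14% lower by that much. At 1.5-fold they were 7 of 13, where 15.3% of all genes were higher and 5.76% lower. In the GFP-only line 0 of 13 were 2-fold higher, where 33.2% of all genes were higher and 7.48% lower, shares that include many genes at 0 in the GFP-negative sort. At 1.5-fold, 3 of 13 were higher in the GFP-only line, where 39.1% of all genes were higher and 13.6% lower. No mitochondrial mRNA was 2-fold higher in both lines, as 4.11% of all genes were, and 0.654% of all genes were 2-fold lower in both.

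A fit over all 4 libraries with GFP status and line as terms (limma on log2 TPM + 1, Benjamini-Hochberg adjustment, 1 residual degree of freedom) called 0% of 14379 genes at an adjusted p of 0.05. At an unadjusted p of 0.05 it took 972 genes (6.76%), with 7 of the 13 mitochondrial mRNAs and 0 of 79 nuclear subunits among them. The 7 were mt-Nd1, mt-Nd3, mt-Nd4, mt-Nd6, mt-Cytb, mt-Co2 and mt-Atp8. For mt-Atp8 the log2 ratio was 0.84 (SE 0.15) with limma adjusted p = 0.46, the lowest adjusted p of any member, and for mt-Nd6 it was 1.21 (SE 0.31) with limma adjusted p = 0.54. mt-Nd5 had a log2 ratio of 0.73 (SE 0.26, limma adjusted p = 0.68). Nothing says that the lines were grown as separate cultures, and a p here reflects only how far these 4 libraries spread, which may be technical.

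Mitochondrial rRNAs did not follow the mRNAs in the fusion line, while in the GFP-only line they were higher in GFP-positive cells, as the mRNAs were. mt-Rnr1, the 12S rRNA of the small mitochondrial ribosomal subunit, was at 172 TPM in GFP-positive against 232 TPM in GFP-negative cells of the fusion line, and at 283 against 192 TPM in the GFP-only line (log2 ratios −0.42 and 0.56). mt-Rnr2, the 16S rRNA of the large subunit, was at 445 against 519 TPM in the fusion line and at 641 against 542 TPM in the GFP-only line (−0.22 and 0.24). The directions thus differed between the lines for both rRNAs, and they kept these signs under each of the other scalings tried. The mRNA sum over the rRNA sum was 23.9 in GFP-positive against 13.3 in GFP-negative cells of the fusion line, but 12.51 against 13.1 in the GFP-only line. Poly-A selection removes most rRNA, so these values describe what remained after it.

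The 22 mitochondrial tRNA genes, of 59 to 75 bases, were measured least well, since poly-A selection does not target them and TPM divide by a very short length. In the fusion line 19 reached 5 TPM in either library, and 13 of these were 2-fold or more higher in GFP-positive cells and 1 lower, beside 8.23% and 3.14% of all genes. In the GFP-only line 18 did, with 8 higher and 1 lower, beside 33.2% and 7.48%. mt-Tg (glycine) was at 30.4 against 3.19 TPM in the fusion line and at 7.70 against 0.265 TPM in the GFP-only line. Others disagreed between lines: mt-Tp (proline) was at 5.82 against 1.3 TPM in the fusion line but at 1.66 against 12.2 TPM in the GFP-only line. Both tRNAs were named after their values were seen.

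Close nuclear copies of mitochondrial genes add a further uncertainty to the mRNA values. The listed transcripts include 11 nuclear pseudogenes that match 9 of the 13 mRNAs at 95% identity or more over at least 200 bases, and reads from such pairs cannot be told apart where they are identical. The pseudogenes together held 10966 TPM in GFP-positive against 8265 TPM in GFP-negative cells of the fusion line, and 9056 against 7655 TPM in the GFP-only line. That is 0.743 and 0.830 of the mitochondrial mRNA sum in the fusion line, and 0.783 and 0.798 in the GFP-only line.

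The copies were often listed above their source. Gm28437, which matches mt-Co3 at 100% identity over 783 of its 784 bases, was at 1909 TPM in GFP-positive against 1343 TPM in GFP-negative cells of the fusion line, and at 1515 against 1245 TPM in the GFP-only line. It thus held between 2.84 and 3.002 times the TPM listed for mt-Co3 itself. Gm10925, identical to 678 bases of mt-Atp6, was at 1460.0 against 939 TPM in the fusion line and at 1153 against 947 TPM in the GFP-only line. At the other end, the copy of mt-Nd5, Gm4076, held 0.0343 to 0.0671 times the TPM of its source.

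The direction of the mRNAs held with the copies taken into account. Adding each copy to its source gave median log2 ratios of 0.64 in the fusion line and 0.28 in the GFP-only line. The 4 mRNAs with no such copy, mt-Nd1, mt-Nd6, mt-Cytb and mt-Atp8, gave medians of 0.69 and 0.52. For mt-Co1 the copies held 0.874 times the TPM of the gene in GFP-positive against 1.001 times in GFP-negative cells of the fusion line, and the log2 ratio with copies added was 0.27 there. These checks were added after the data were seen.

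**Figure D2:**
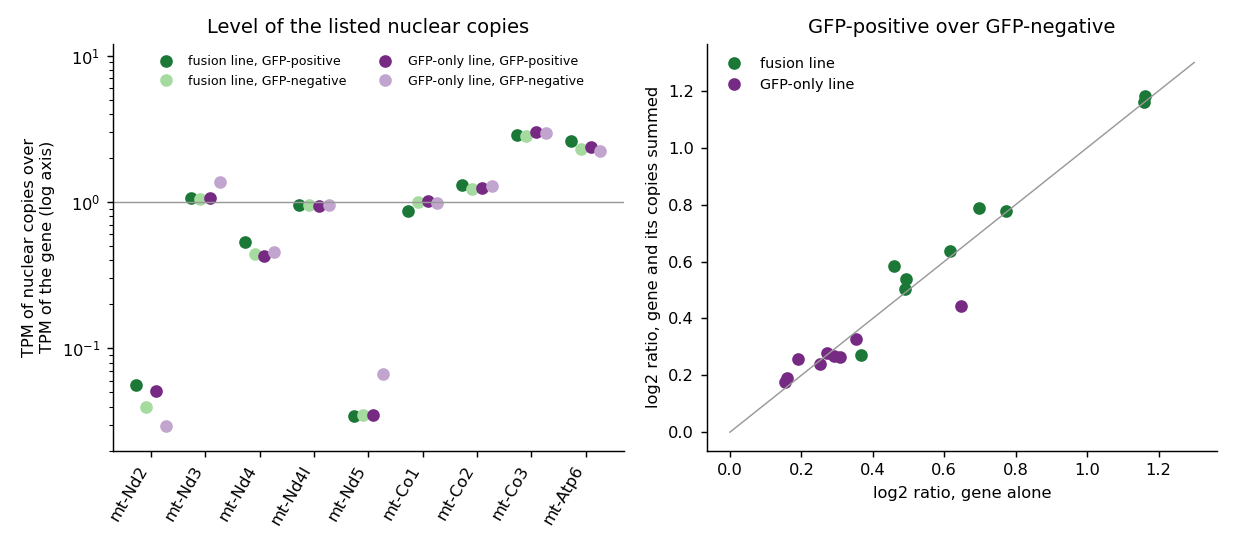
Left, summed TPM of the listed nuclear copies over the TPM of the mitochondrial gene (log axis), 1 point per library, for the 9 genes with a copy; the line marks equal levels. Right, log2 ratio of GFP-positive over GFP-negative cells for the gene alone and for gene and copies summed, with the line of equality; both lines stay above 0 for all 9 genes.

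Nuclear subunit genes as a group did not share the difference. The 82 genes summed to 12350.1 TPM in GFP-positive against 12266 TPM in GFP-negative cells of the fusion line (1.01 times), and to 13442 against 15028 TPM in the GFP-only line (0.894 times). Of the 82, 77 reached 5 TPM, and Cox4i2, Cox7b2, Cox8b, Cox8c and Atp5s did not. In the fusion line 47 of the 77 were higher in GFP-positive cells, as were 67.8% of all genes, with a median log2 ratio of 0.06, which became −0.10 under median-ratio scaling and −0.06 under quantile normalization. Median-ratio scaling also moved the median of all genes in that line to −0.01 from 0.14, so the nuclear subunits lay slightly below it either way. In the GFP-only line 26 of 77 were higher, as were 59.2% of all genes, with a median of −0.12. That sign depends on the GFP-negative library used, and against that of the fusion line the median was 0.13. This value was not rescaled for the difference between the libraries given above. The median over all genes for this pair is not given, so 0.13 is not read as a higher level.

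The ratio of the mitochondrially encoded to the nuclear sum therefore differed with GFP status in both lines. It was 1.19 in GFP-positive against 0.812 in GFP-negative cells of the fusion line, and 0.861 against 0.638 in the GFP-only line. Of all listed TPM, mitochondrial mRNAs took 2.14% against 1.495% in the fusion line and 1.69% against 1.42% in the GFP-only line. Nuclear subunits took 1.79% against 1.84% in the fusion line and 1.97% against 2.23% in the GFP-only line. The mitochondrial values leave out the nuclear copies described above, which held 0.743 to 0.830 times the mitochondrial mRNA sum. The level of the ratio and of these shares thus depends on how identical reads were divided. In the GFP-only line both the higher mitochondrial and the lower nuclear sum entered the ratio, and in the fusion line nearly all of it came from the mitochondrial sum. The lower nuclear sum rests on the library with many zeros. With the GFP-negative library of the fusion line as comparison for the GFP-only line, the ratios lay close, at 0.861 against 0.812. The nuclear sum was then higher in GFP-positive cells, at 13442 against 12266 TPM, as was the mitochondrial sum (11569 against 9961 TPM). Neither sum was rescaled for the difference between these libraries given above.

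**Figure D3:**
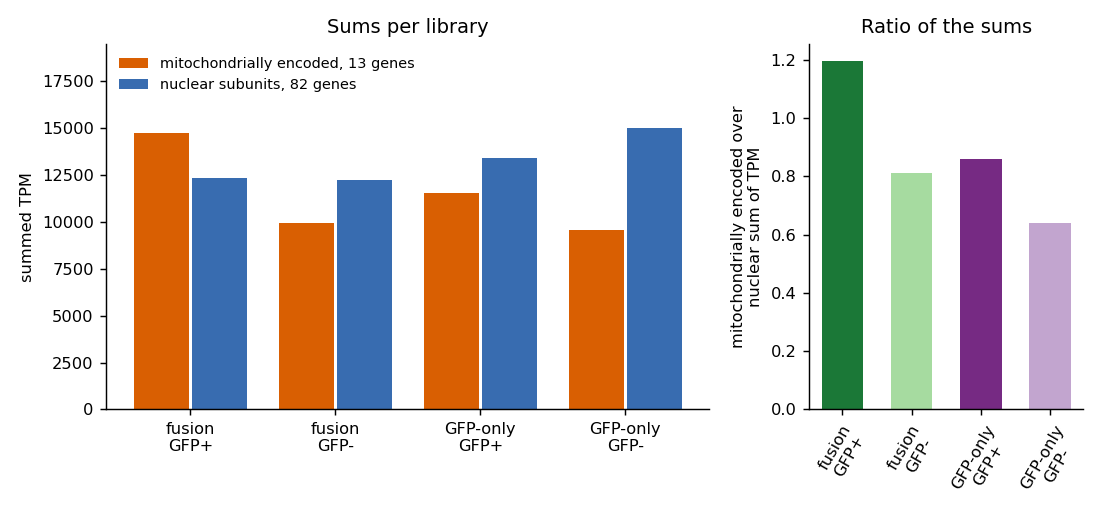
Left, summed TPM of the 13 mitochondrially encoded mRNAs and of the 82 nuclear subunit genes in each library; right, the ratio of the sums, which was 1.19 and 0.812 in GFP-positive and GFP-negative cells of the fusion line and 0.861 and 0.638 in those of the GFP-only line. Each bar is 1 library, with no replicate error.

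Single nuclear genes stayed close together. In the fusion line 51 of 77 (66.2%) were within 1.2-fold between GFP-positive and GFP-negative cells, as were 51.8% of all genes, and in the GFP-only line 40 of 77 (51.9%), as were 26.9% of all genes. The shares of all genes were not matched for level. Nuclear members had medians of 98.2 to 112 TPM in the libraries. In GFP-negative cells of the GFP-only line, 35.8% of genes averaging 5 to 20 TPM in the other libraries were at 0. The part of level in the contrast was not tested. The nuclear genes past 2-fold numbered 1 higher and 2 lower of 77 in the fusion line, where 8.23% and 3.14% of all genes were, and 2 higher and 2 lower in the GFP-only line, where 33.2% and 7.48% were. None was past 2-fold in the same direction in both lines. Of the 77, 19 were higher and 23 lower in GFP-positive cells of both lines at any size, 24.7% and 29.9%, beside the 45.4% and 16.4% of all genes given above. With the GFP-negative library of the fusion line as the comparison for the GFP-only line, 18 of the 19 were still higher and 9 of the 23 still lower. These counts were not rescaled for the difference between the libraries given above, which tilts them towards higher.

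**Figure D4:**
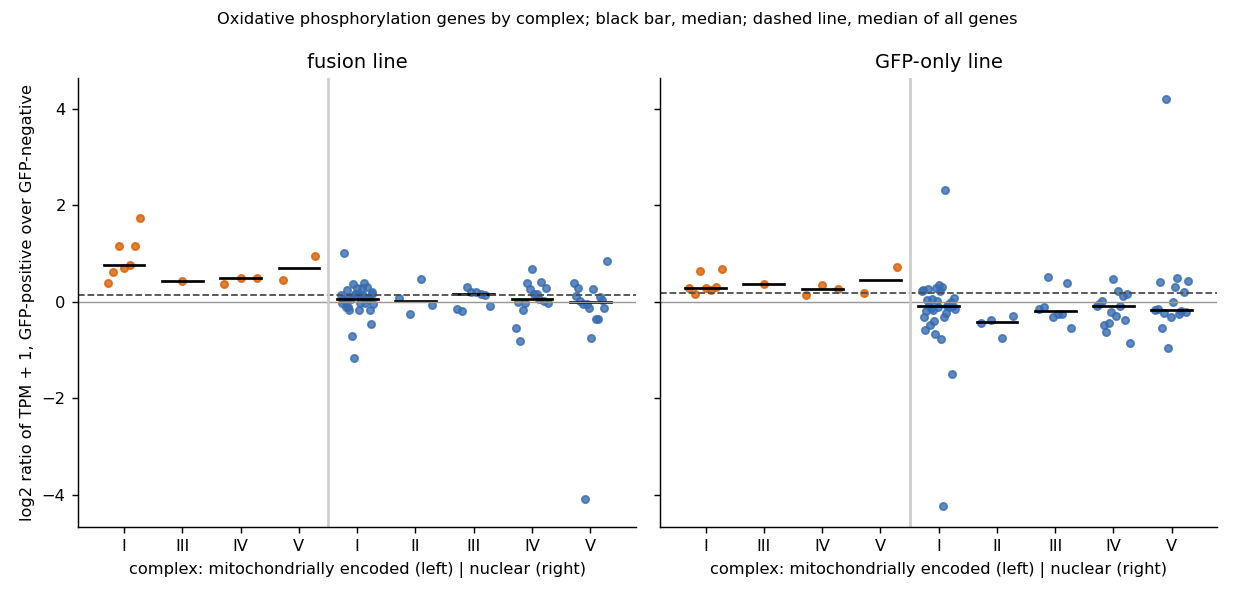
Log2 ratio of TPM + 1, GFP-positive over GFP-negative cells, for mitochondrially encoded mRNAs (orange) and nuclear subunits at 5 TPM or more (blue) by complex; black bars are medians and the dashed line is the median of all genes (0.14 and 0.19; 0.14 and −0.006 over genes above 0 in both libraries of the line). The orange points lie above 0 in both lines, while the blue ones scatter around it apart from Atp5f1, Ndufc1 and Ndufs1.

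In complex I the 34 nuclear subunits summed to 1.02 times as much in GFP-positive as in GFP-negative cells of the fusion line and 0.915 times in the GFP-only line. The most abundant were Ndufa6 and Ndufa7, accessory subunits. Ndufa6 was at 228 TPM in GFP-positive against 246 TPM in GFP-negative cells of the fusion line and at 226 against 235 TPM in the GFP-only line, so nearly level in all libraries. Ndufb2, an accessory subunit of the membrane arm, was lower in both lines, at 6.84 against 16.7 TPM in the fusion line and at 28.6 against 46.2 TPM in the GFP-only line (log2 ratios −1.17 and −0.67). Ndufs8, an iron-sulfur subunit, was also lower in both, at 8.49 against 11.96 TPM in the fusion line and at 8.20 against 24.8 TPM in the GFP-only line (−0.45 and −1.49). With the GFP-negative library of the fusion line as its comparison, the GFP-only line gave log2 ratios of 0.75 for Ndufb2 and −0.49 for Ndufs8. Both genes have annotated transcripts without a listed value.

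Complex II, succinate dehydrogenase, is the one complex with no mitochondrially encoded subunit. Its 4 genes summed to 327 TPM in GFP-positive against 329.8 TPM in GFP-negative cells of the fusion line (0.993 times), and to 312 against 416 TPM in the GFP-only line (0.750 times). All 4 were lower in GFP-positive than in GFP-negative cells of the GFP-only line. Against the GFP-negative library of the fusion line, Sdha and Sdhc were lower there (log2 ratios −0.19 and −0.37) and Sdhb and Sdhd nearly level (0.04 and 0.01). Sdha, the flavoprotein that oxidises succinate, was at 128 against 121 TPM in the fusion line and at 105 against 144 TPM in the GFP-only line. Sdhb, the iron-sulfur subunit, was lower in both, at 90.4 against 108 TPM in the fusion line and at 111 against 145 TPM in the GFP-only line (log2 ratios −0.25 and −0.38). The membrane anchor Sdhc was at 35.4 against 24.995 TPM in the fusion line and at 19.2 against 32.8 TPM in the GFP-only line, and Sdhd, the other anchor, changed by −0.05 and −0.29 on the log2 scale.

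Complex III passes electrons from ubiquinol to cytochrome c. Its 8 nuclear genes taken by the rule summed to 1.03 times as much in GFP-positive as in GFP-negative cells of the fusion line. In the GFP-only line they summed to 0.898 times as much. Cyc1, the cytochrome c1 of this complex, has a symbol outside the rule and is counted below with the electron carriers. Uqcrb, a small subunit near the ubiquinone site, was higher in both lines, at 83.1 against 67.3 TPM in the fusion line and at 84.2 against 58.2 TPM in the GFP-only line (log2 ratios 0.30 and 0.52). The core subunit Uqcrc1 was at 304 against 263 TPM in the fusion line and at 292 against 361 TPM in the GFP-only line. Uqcrc2, its partner, likewise differed in direction between the lines (0.20 and −0.24). Uqcr10, a small subunit, was at 289.7 against 319.8 TPM in the fusion line and at 358 against 395 TPM in the GFP-only line, lower by 0.14 in each. With the GFP-negative library of the fusion line as comparison, the GFP-only line gave log2 ratios of 0.16 for Uqcr10 and 0.32 for Uqcrb.

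Complex IV had the lowest nuclear sum ratio in the fusion line, 0.962 times, and 0.858 times in the GFP-only line. Cox4i1, the main form of subunit 4, was at 417 TPM in GFP-positive against 605 TPM in GFP-negative cells of the fusion line and at 636 against 677 TPM in the GFP-only line (log2 ratios −0.54 and −0.09). Cox8a, the ubiquitous form of subunit 8, was at 605 against 598 TPM in the fusion line and at 652 against 852 TPM in the GFP-only line. Cox6a1 was lower in both lines, at 471 against 527 TPM in the fusion line and at 516 against 718 TPM in the GFP-only line. Against the GFP-negative library of the fusion line, Cox6a1 and Cox4i1 were nearly level in GFP-positive cells of the GFP-only line. Their log2 ratios were −0.03 and 0.07. Over Cox4i1 and mt-Co1, which assemble into the same enzyme, the ratio of nuclear to mitochondrial TPM was 0.0783 against 0.147 in the fusion line and 0.156 against 0.184 in the GFP-only line.

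Several complex IV subunits have alternative genes, and the forms known from ubiquitous expression led in every pair. Cox4i2, the form known from lung, took less than 1% of the Cox4 TPM in all libraries. Cox6b2, known from testis, took 34.7% of the Cox6b TPM in GFP-positive against 28.5% in GFP-negative cells of the fusion line, and 27.6% against 25.4% in the GFP-only line. Cox7a1, known from heart and muscle, took 23.8% of the TPM of Cox7a1 and Cox7a2 against 17.8% in the fusion line, and 31.0% against 20.6% in the GFP-only line. It was at 28.5 against 17.5 TPM in the fusion line and at 47.0 against 33.6 TPM in the GFP-only line (log2 ratios 0.68 and 0.47). Ndufa4l2, a relative of Ndufa4 known to be induced by low oxygen, took 19.4% of the pair against 23.1% in the fusion line and 21.1% against 35.4% in the GFP-only line. The muscle form Cox8b and the testis form Cox8c were listed at 0 in 3 libraries each.

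Complex V held the most abundant nuclear members. Atp5b, the catalytic beta subunit, was at 1786 TPM in GFP-positive against 1649 TPM in GFP-negative cells of the fusion line and at 1699 against 1892 TPM in the GFP-only line. Atp5a1, the alpha subunit, was at 731 against 559.6 TPM in the fusion line and at 805 against 907 TPM in the GFP-only line. Atp5c1, the gamma subunit of the rotor, was higher in both lines, at 209 against 171 TPM in the fusion line and at 234 against 176 TPM in the GFP-only line (log2 ratios 0.29 and 0.41). Atp5h, the d subunit of the stalk, was higher in both as well (0.27 and 0.31), and Atp5j2, the f subunit, lower in both (−0.35 and −0.25). GFP-positive cells of the GFP-only line were also set against the GFP-negative library of the fusion line. The log2 ratios were then 0.45 for Atp5c1, 0.06 for Atp5h and 0.23 for Atp5j2. Atp5sl was higher in both, at 18.0 against 9.53 TPM in the fusion line and at 22.4 against 16.3 TPM in the GFP-only line (0.85 and 0.43). The rule takes Atp5sl by its name, although its product, also called Dmac2, is known for assembling the membrane arm of complex I.

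The c ring of complex V is encoded by 3 genes for 1 mature protein. Their summed TPM was 406 in GFP-positive against 519 in GFP-negative cells of the fusion line and 590.2 against 746 in the GFP-only line. Atp5g3 gave 33.9% of it against 44.5% in the fusion line, and 50.9% against 40.3% in the GFP-only line. Atp5g2 gave 39.2% against 33.6% in the fusion line, and 28.2% against 27.7% in the GFP-only line. Atp5g1 gave 26.9% against 21.8% in the fusion line, and 20.9% against 32.0% in the GFP-only line. The share of Atp5g3 in these sums thus went opposite ways in the lines. The sums also count non-coding transcripts. For Atp5g3 the non-coding ENSMUST00000142768 held 87.3 TPM in GFP-positive against 7.98 TPM in GFP-negative cells of the fusion line. It held 13.9 against 21.2 TPM in the GFP-only line. The shares are therefore not shares of coding RNA.

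Some nuclear genes past 2-fold rested on single transcripts listed at or near 0 in some libraries; these genes and transcripts were chosen after their values were seen. Atp5f1, the b subunit of the stalk of complex V, was at 5.93 TPM in GFP-positive against 117 TPM in GFP-negative cells of the fusion line, but at 139 against 6.58 TPM in the GFP-only line (log2 ratios −4.09 and 4.21). Its transcript ENSMUST00000118209 was listed at 0 against 113 TPM in the fusion line and at 132 against 0 TPM in the GFP-only line. Ndufa12, an accessory subunit of complex I, was at 75.9 against 36.9 TPM in the fusion line and at 39.2 against 59.1 TPM in the GFP-only line (1.02 and −0.58). ENSMUST00000179990 was at 74.6 against 0.0993 TPM in the fusion line and at 0.369 against 54.3 TPM in the GFP-only line, and ENSMUST00000020209 had the reverse pattern, at 0.624 against 36.5 TPM and at 38.4 against 1.11 TPM.

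The same division of libraries was found for Atp5d, the delta subunit, at the level of 1 transcript. ENSMUST00000105367 was at 0 against 108 TPM in the fusion line and at 78.9 against 0 TPM in the GFP-only line, while the gene total was 262 against 257 TPM in the fusion line and 259 against 379 TPM in the GFP-only line. These were the 3 member transcripts, of 353, that were at 20 TPM or more in 1 library of each line with opposite GFP status and at 1 TPM or less in the other libraries. Over all 58853 transcripts there were 33 of that kind, against 58 at 20 TPM or more in both GFP-positive libraries and at 1 TPM or less in both GFP-negative ones, a pattern that no member transcript had.

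Others differed in 1 library. Ndufc1, a small accessory subunit of complex I, was at 26.9 TPM in GFP-positive against 21.8 TPM in GFP-negative cells of the fusion line, and at 0.805 against 33.1 TPM in the GFP-only line, so only the GFP-positive library of the GFP-only line was low. Ndufs1, the largest iron-sulfur subunit of complex I, was at 85.1 against 65.0 TPM in the fusion line and at 47.6 against 8.70 TPM in the GFP-only line, low in the library with many zeros. Atp5g3 was at 138 against 231 TPM in the fusion line and at 300.5 against 300.4 TPM in the GFP-only line. Its transcript ENSMUST00000018914 was at 1.03 against 166 TPM in the fusion line and at 202 against 180 TPM in the GFP-only line, and the non-coding ENSMUST00000142768 was at 87.3 against 7.98 TPM and at 13.9 against 21.2 TPM. Of the 82 nuclear genes, 34 have at least 1 annotated transcript with no listed value, so a gene total can miss part of its RNA, whereas each mitochondrial gene has 1 transcript and it was listed.

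**Figure D5:**
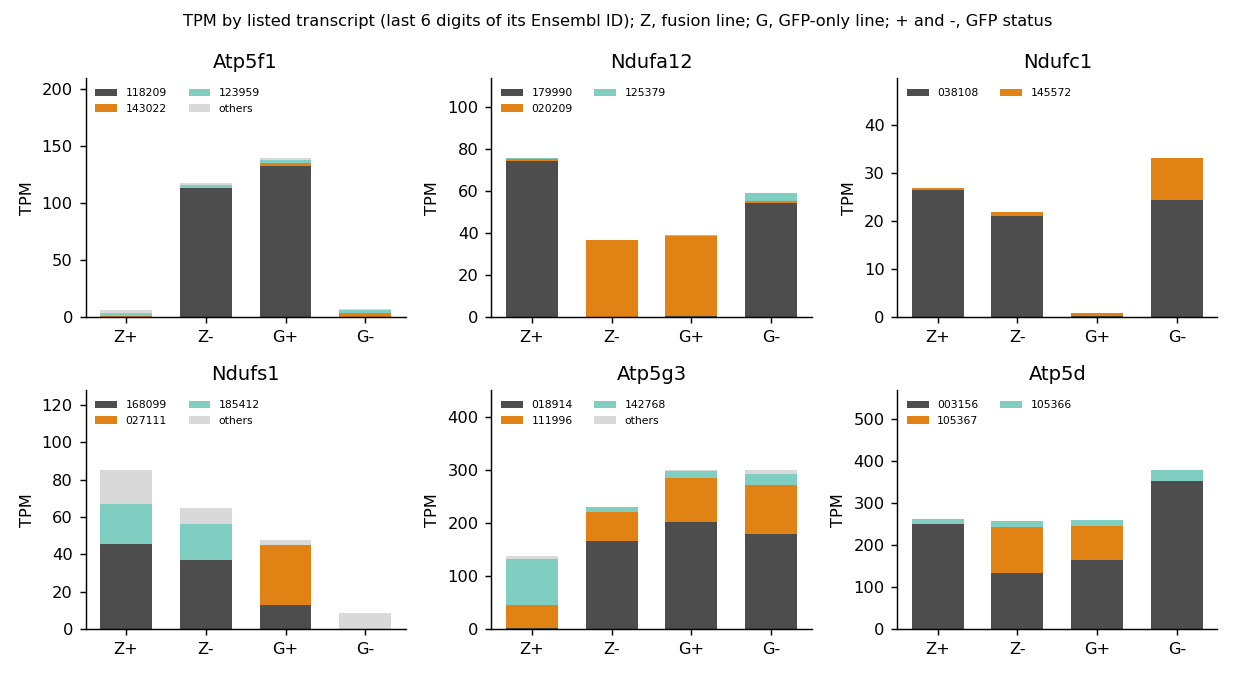
TPM of 6 nuclear subunit genes split by listed transcript (last 6 digits of the Ensembl ID; the 3 highest are coloured and others grey), in GFP-positive and GFP-negative cells of the fusion line (Z+, Z-) and of the GFP-only line (G+, G-). Atp5f1 is near 0 in Z+ and G-, Ndufa12 changes its transcript between the same libraries, and Atp5d does so in part.

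The genes that transcribe and process mitochondrial RNA, all nuclear, were looked at beside the mRNAs. Of 10 listed genes of mitochondrial transcription, 8 reached 5 TPM in the fusion line, with 7 higher in GFP-positive cells, a median log2 ratio of 0.34 and 0 past 2-fold. The counts of higher genes in this and the following lists stand beside 67.8% of all genes in the fusion line and 59.2% in the GFP-only line, where the shares past 2-fold higher were 8.23% and 33.2%. Tfam, which packages the mitochondrial genome and starts its transcription, was at 22.0 TPM in GFP-positive against 16.5 TPM in GFP-negative cells of the fusion line, and at 21.7 against 0 TPM in the GFP-only line. Polrmt, the mitochondrial RNA polymerase, was at 25.6 against 25.3 TPM in the fusion line and at 17.9 against 7.70 TPM in the GFP-only line. In the GFP-only line 6 of the 10 were listed at 0 in GFP-negative cells, so its count of 5 past 2-fold carries little. Tfam was named after its values were seen.

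For the 14 genes of mitochondrial RNA processing and stability that reached 5 TPM in the fusion line, 12 were higher and 2 lower in GFP-positive cells, with a median of 0.30 and 0 past 2-fold. Lrpprc, which stabilises mitochondrial mRNAs, was at 54.1 against 44.2 TPM in the fusion line and at 53.1 against 5.198 TPM in the GFP-only line. In the GFP-only line the median over the 10 such genes above 0 in both libraries was −0.14. The 76 mitochondrial ribosomal protein genes at 5 TPM or more had a median of 0.12 in the fusion line (59 higher, 0 past 2-fold higher, 1 lower) and the 77 in the GFP-only line one of 0.02 (40 higher, 14 past 2-fold higher, 2 lower). None of these genes passed the adjusted limma threshold.

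Other lists of the pathway were also mixed. Of 14 assembly factors of complex I, 8 were higher and 6 lower in the fusion line with a median of 0.09. Ndufaf6, one of them, was lower in both lines, at 14.7 TPM in GFP-positive against 30.0 TPM in GFP-negative cells of the fusion line and at 12.3 against 27.6 TPM in the GFP-only line (log2 ratios −0.98 and −1.11). Acad9, another, was higher in both, at 28.0 against 16.4 TPM in the fusion line and at 27.1 against 7.76 TPM in the GFP-only line. The 17 genes of the tricarboxylic acid cycle, which feeds the chain with NADH and succinate, had medians of 0.16 (12 higher) in the fusion line and −0.09 (8 higher) in the GFP-only line. The 19 complex IV assembly factors at 5 TPM or more had a median of 0.14 in the fusion line. The 12 genes listed as electron carriers, for cytochromes c and c1 and the makers of ubiquinone, had one of −0.02. The medians in the GFP-only line were 1.56 for complex I assembly factors, 0.47 for those of complex IV and 1.15 for electron carriers, with 8, 8 and 6 genes past 2-fold higher. Over genes above 0 in both its libraries they were 0.80, −0.04 and 0.24.

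The promoters of nuclear subunit genes were searched for letters known from factors that control them: the core of sites for NRF1 (GCGCA and GCGC joined by 1 base of any kind), and CCGGAAG, the core of sites for the ETS family that includes GABP, each on both strands. Windows ran from 250 bases before to 50 bases after the gene's start in RefSeq on GRCm38.p6, and 68 of 82 genes had one. The NRF1 letters were in 17 of them (25%), against 5.14% of 26957 windows of other genes and 12.8% of 7158 windows of other genes at 5 TPM or more. The ETS letters were in 16 (23.5%), against 9.89% and 22.8%. A match is only a description of the sequence and was not compared with binding. Shown as examples, with NRF1 letters in capitals on either strand, are Sdha, whose window at chr13:74350191-74350490 (minus strand) holds 3 matches, and Cox6a1 at chr5:115348909-115349208 (minus strand), which holds 2 and, nearest the start, 1 match to the ETS letters, also in capitals.
Sdha: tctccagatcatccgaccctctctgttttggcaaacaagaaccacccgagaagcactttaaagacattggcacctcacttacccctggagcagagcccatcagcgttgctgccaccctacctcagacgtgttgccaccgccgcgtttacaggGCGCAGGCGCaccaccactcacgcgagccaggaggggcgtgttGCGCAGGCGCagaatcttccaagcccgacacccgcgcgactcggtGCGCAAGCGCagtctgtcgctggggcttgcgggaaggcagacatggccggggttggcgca
Cox6a1: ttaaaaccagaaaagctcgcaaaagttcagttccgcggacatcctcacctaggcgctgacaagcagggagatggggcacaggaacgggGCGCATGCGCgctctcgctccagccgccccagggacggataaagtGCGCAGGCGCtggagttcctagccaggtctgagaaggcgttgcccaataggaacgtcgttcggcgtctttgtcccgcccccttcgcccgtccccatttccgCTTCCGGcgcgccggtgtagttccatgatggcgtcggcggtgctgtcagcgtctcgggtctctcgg

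Against the GFP-negative library of its own line, neither factor gene moved with GFP status in a like way in both lines. Nrf1 was at 24.0 TPM in GFP-positive against 29.3 TPM in GFP-negative cells of the fusion line, and at 51.2 against 12.47 TPM in the GFP-only line. Gabpa, the DNA-binding part of GABP, was at 42.2 against 19.7 TPM in the fusion line and at 33.8 against 42.9 TPM in the GFP-only line. Against the GFP-negative library of the fusion line, GFP-positive cells of the GFP-only line were higher for Nrf1 (51.2 against 29.3 TPM). They were also higher for Gabpa (33.8 against 19.7 TPM), which for Gabpa is the direction of the fusion line. Both genes were picked after their values had been seen. The holders of NRF1 letters were spread over all complexes, with 7 of 30 in complex I, 2 of 3 in complex II, 1 of 5 in complex III, 1 of 14 in complex IV and 6 of 16 in complex V.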

How the data were processed

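TPM per transcript were deposited by the authors for 4 libraries, 1 per population. Tools named in the submitters' processing notes are HISAT2 2.1.0, StringTie 1.3.5 and CASAVA, with the build GRCm38 (mm10), with options and annotation release not given in the sources used here. TPM keep no counts, so depth is unknown and intervals from counts are not given; the listed TPM sum to 66.6% to 69.1% of a full scale, and an exact 0 may be a failed estimate.

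TPM were summed per symbol (58853 transcripts, 24190 symbols; pandas 2.3.3). Ratios are of TPM + 1 on the log2 scale, where changes of low genes appear smaller than they are. Genes at 5 TPM or more in either library were counted at 2-fold (also 1.5-fold), without a test. limma 3.58.1 (R 4.3.3; trend and robust eBayes, two-sided) was fitted where a gene had at least 1 TPM in 2 or more libraries, and was tested on simulated data. Positions are from GENCODE, nuclear copies from BLAST+ 2.17.0 (95% identity, 200 bases) and promoters from RefSeq.

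Genes named were all mitochondrial mRNAs and rRNAs, the 2 highest and 2 lowest nuclear members of each complex, members 2-fold apart in both lines, up to 6 each way by the smaller of both ratios, members listed at 0 while at 5 TPM elsewhere, isogenes, and up to 2 per other list. Members and lists were chosen with earlier results of these data known. Alternatives changed the pseudocount, low-value filter, scaling, threshold and libraries used.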

Additional observations from a re-analysis of the deposited data

Results flagged for a closer look

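The following genes moved in opposite directions with GFP status in the lines, by a log2 ratio of at least 0.20 in each. The difference between the lines was not tested, since each line is 1 pair of libraries. Both mitochondrial rRNAs were lower in GFP-positive cells of the fusion line and higher in those of the GFP-only line, with log2 ratios of −0.42 and 0.56 for mt-Rnr1 and of −0.22 and 0.24 for mt-Rnr2. In complex I, Ndufc1 had log2 ratios of 0.29 in the fusion line and −4.24 in the GFP-only line, and Ndufa12 of 1.02 and −0.58. Sdhc, a membrane anchor of complex II, had 0.48 and −0.75. The core subunits of complex III had 0.21 and −0.31 for Uqcrc1 and 0.20 and −0.24 for Uqcrc2. Cox6b2, the form of subunit 6b known from testis, had 0.39 and −0.45. In complex V the ratios were −4.09 and 4.21 for Atp5f1 and −0.36 and 0.49 for Atp5j, the coupling factor 6 subunit. Ndufa12, Atp5f1 and Atp5j were named after their values were seen. Of 77 nuclear subunits tested in both lines, 28 were higher in the fusion line and lower in the GFP-only line, and 7 the reverse, at any size. The sign in the GFP-only line depends in part on its GFP-negative library. Against the GFP-negative library of the fusion line, the log2 ratio of its GFP-positive cells was 0.29 for mt-Rnr1, 0.30 for mt-Rnr2, −3.66 for Ndufc1, −0.37 for Sdhc, 0.25 for Atp5f1 and 0.67 for Atp5j, of the same sign as above. It was 0.08 for Ndufa12, 0.15 for Uqcrc1, 0.14 for Uqcrc2 and 0.02 for Cox6b2, of the opposite sign. These ratios were not rescaled for the difference between the libraries given above.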

How the results depend on the processing

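Of 74 alternatives to the main values, 61 kept direction and call and moved by less than the spread between the lines or, for counts, within 1.5 times. That margin is wide: quantile normalization gave medians of 0.438 for mitochondrial mRNAs and −0.04789 for nuclear subunits in the GFP-only line, and rescaled TPM 0.02099 for nuclear subunits in the fusion line. The cause of the changes was not tested. The median log2 ratio of mitochondrial mRNAs stayed above 0 under all; over genes with no nuclear copy it was 0.5218 in the GFP-only line, against 0.2921 over all 13. The median of nuclear subunits changed sign in the fusion line under median-ratio scaling (−0.09516) and quantile normalization (−0.05616), against 0.06244. In the GFP-only line it changed sign with the other GFP-negative library, at 0.1336 without rescaling between the libraries. The log2 ratio of the mitochondrial to nuclear sum was 0.6821 without mt-Co1 and 0.724 with medians in the fusion line, against 0.5564, and 0.3263 with medians in the GFP-only line, against 0.432. At 1.5-fold, 32 and 24 members were called in the fusion and GFP-only lines, against 20 and 13 at 2-fold. Of all genes at 5 TPM or more, 15.3% were 1.5-fold higher and 5.76% lower in the fusion line, and 39.1% and 13.6% in the GFP-only line. At 2-fold these shares were 8.23% and 3.14%, and 33.2% and 7.48%. Among the members past 2-fold, mitochondrial tRNAs were 13 higher and 1 lower in the fusion line, and 8 higher and 1 lower in the GFP-only line. limma called 3 genes at an adjusted p of 0.05 at a mean of 10 TPM or more, 3 with a pseudocount of 5 TPM and, under quantile normalization, 316 genes with 8 members, against 0. For 84 named genes, 571 of 672 alternative values stayed within the SD of the lines' ratios, 101 moved further, and 0 of those past 2-fold changed sign. The labels give no replicate numbers; GFP status was paired within line, by line as a term of the limma fit, and without that term 0 genes passed the adjusted threshold and 1014 the unadjusted one, against 972.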
